A study of Mus musculus with 6 samples.

Results

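Intragenic distal regions of histone H3 lysine 9 crotonylation (H3K9cr) and acetylation (H3K9ac) were examined, that is, short stretches inside protein-coding genes, far from any gene end, that carried peaks of both marks in every library. Overlapping peaks of the 4 deposited lists were merged into 31127 regions. A region was kept when all 4 lists had a peak in it, when its longest peak was under 2000 bp in each list, and when it lay wholly inside the GRCm38 span of a protein-coding gene and more than 5 kb from every end of a protein-coding gene. Members were thus chosen by the presence and the length of the deposited peaks in all 4 libraries, and these 2 properties are given as a description. The criteria left 2730 members, which were 11.9% of the 22972 regions with a peak in all 4 lists and 8.77% of all merged regions. The members covered 2.99 Mb in 1900 host genes.

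The material was P19, a mouse embryonal carcinoma line, grown undifferentiated in MEM α with 10% fetal bovine serum and with no treatment or genetic change named in the labels. Chromatin was prepared natively, without crosslinking, and was precipitated with 1 antibody for H3K9cr (2 libraries) or 1 antibody for H3K9ac (2 libraries), so that a mark and its antibody cannot be told apart. The series names biological replicates but gives no further source for each, and p-values therefore measure the spread between these libraries. The 2 input libraries were not analysed here, and read depth is unknown.

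Acetylation of lysine 9 on histone H3 is a mark of active promoters and enhancers, and crotonylation of the same lysine is a related acyl mark that is written by some of the same acyltransferases and read by YEATS and double PHD finger domains. Inside genes, distal sites of such marks are typically alternative promoters, starts of noncoding RNAs or intronic enhancers. Peak lists alone do not separate these, and the gene table used here gives no exons, so a member's place in an exon or intron is not given.

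Of the 2730 members, 351 (12.9%) held a listed RefSeq start of a protein-coding transcript, 60 (2.198%) held only a listed start of a long noncoding RNA (lncRNA), and 2319 (84.9%) held no listed start. The start table is not complete: it held 1484 of the 1900 host genes, and 571 of the members without a start lay in a gene that it did not hold. The next 5 windows show starts inside members, from 250 bases before to 50 bases after the start, in the direction of transcription, from RefSeq on GRCm38.p6. They were chosen because the first holds a receptor-type repeat, the next 2 are rich in CpG and the last 2 are poor in CpG although the peaks of their members were high. Summits of the Rarb, Zfp638, Ank2 and Grb2 members lay more than 50 bases downstream of these starts in every library, outside the windows. Capitals mark the repeated element in the Rarb window and every CpG in the other 4.
Rarb, chr14:16575427-16575726, minus strand: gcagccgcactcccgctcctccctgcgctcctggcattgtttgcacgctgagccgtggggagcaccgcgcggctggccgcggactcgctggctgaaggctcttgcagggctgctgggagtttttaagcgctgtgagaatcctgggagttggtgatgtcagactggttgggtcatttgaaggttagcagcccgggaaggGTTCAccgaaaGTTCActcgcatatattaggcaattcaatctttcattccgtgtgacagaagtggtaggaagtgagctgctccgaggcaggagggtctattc
Hdac7, chr15:97831718-97832017, minus strand: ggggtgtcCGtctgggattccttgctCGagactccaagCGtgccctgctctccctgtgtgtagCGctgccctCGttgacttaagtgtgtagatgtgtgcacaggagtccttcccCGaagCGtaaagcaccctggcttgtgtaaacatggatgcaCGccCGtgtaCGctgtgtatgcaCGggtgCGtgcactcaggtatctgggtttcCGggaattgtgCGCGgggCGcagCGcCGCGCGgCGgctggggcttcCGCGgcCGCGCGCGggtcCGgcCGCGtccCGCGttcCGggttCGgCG
Zfp638, chr6:83914103-83914402, plus strand: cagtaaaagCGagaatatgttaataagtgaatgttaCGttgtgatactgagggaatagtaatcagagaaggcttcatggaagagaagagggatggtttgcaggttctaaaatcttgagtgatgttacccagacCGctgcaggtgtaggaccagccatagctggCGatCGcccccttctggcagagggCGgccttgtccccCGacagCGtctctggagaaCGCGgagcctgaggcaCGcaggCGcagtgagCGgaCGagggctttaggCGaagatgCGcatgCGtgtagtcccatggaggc
Ank2, chr3:127409009-127409308, minus strand: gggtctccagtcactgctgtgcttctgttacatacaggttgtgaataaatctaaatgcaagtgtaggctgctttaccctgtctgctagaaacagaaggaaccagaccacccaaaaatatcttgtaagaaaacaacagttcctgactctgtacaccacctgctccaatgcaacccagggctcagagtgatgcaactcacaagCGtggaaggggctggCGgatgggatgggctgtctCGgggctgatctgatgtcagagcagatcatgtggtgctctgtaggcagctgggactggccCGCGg
Grb2, chr11:115699879-115700178, minus strand: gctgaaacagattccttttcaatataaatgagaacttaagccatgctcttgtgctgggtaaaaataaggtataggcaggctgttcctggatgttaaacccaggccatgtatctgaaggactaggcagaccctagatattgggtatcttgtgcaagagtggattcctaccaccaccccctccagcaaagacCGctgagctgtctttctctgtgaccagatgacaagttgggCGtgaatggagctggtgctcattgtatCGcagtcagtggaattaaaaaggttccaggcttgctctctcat

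A further member held a microRNA cluster. It lay in Larp7, which encodes a protein of the 7SK small nuclear ribonucleoprotein, at chr3:127544167-127546061, and contained all 5 hairpins of the miR-302/367 cluster, known for its high expression in pluripotent cells. From the RefSeq table (GRCm38.p6), 6 of the 9 mature sequences that it holds for the cluster are shown, because 2 of the listed 3′ arms share a seed. No 3′ arm is listed for Mir302a, whose hairpin also contains the letters AAGUGCU. Seeds, bases 2 to 8, are given in capitals.
miR-302b-3p: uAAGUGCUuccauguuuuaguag
miR-302d-3p: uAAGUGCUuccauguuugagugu
miR-302c-3p: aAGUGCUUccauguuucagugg
miR-302b-5p: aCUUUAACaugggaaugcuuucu
miR-302a-5p: aCUUAAACgugguuguacuugc
miR-367-3p: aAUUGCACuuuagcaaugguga

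The labelled cell type was checked at gene ends before the members were described. All 8 markers of pluripotent cells, among them Pou5f1, Sox2 and Nanog, had a peak within 1 kb of an end in all 4 libraries, with fold enrichments from 4.34 to 99.8. All 4 neuron markers (10.7 to 46.9) and all 4 fibroblast markers (9.69 to 19.5) had peaks in all 4 libraries as well. The check therefore did not set pluripotent markers apart from these, and the part of other cell types in the results was not tested. Such peaks were common. Among 9594 genes of the start table over 10 kb without a member, 70.4% had a peak in all 4 libraries at the 5′ end alone. Among the blood, liver and endoderm, and muscle markers reported here, Spi1, Sox17 and Myod1 had peaks in every library, Myog in 3, and Ptprc, Hbb-bt, Alb, Afp, Ttr, Tnnt2 and Myh6 in none.

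Members were spread over the genome at every distance that the rule allows. The median distance from a member to the nearest end of a coding gene was 18811.5 bp, with the middle of the distribution between 9350.5 and 42762.5 bp. More than 50 kb separated 587 members from the nearest coding end, more than 100 kb separated 256, and the greatest distance was 984103 bp. Regions were 313 to 2676 bp long with a median of 1057 bp, and 169 members held 2 or more peaks of the same list. They lay on 20 chromosomes, with 60 on X and 0 on Y. Per megabase of sequence that meets the position criteria, there were 3.19 members inside genes and 2.34 short shared regions outside them. Members were sparser on X (1.57) than on the autosomes (3.27). The regions outside genes were likewise sparser on X (0.802) than on the autosomes (2.63).

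Regions at the edge of the rule are given as a description. In Nr6a1 the longest peak of a member was 1998 bp and in Nav2 1996 bp, whereas regions in Foxk1 (2000 bp) and Prkacb (2002 bp) were left out. The members nearest the distance limit lay in Pdlim2 (5006 bp) and Adam33 (5011 bp), and the regions just within it in Prtg (4994 bp) and Syt17 (4992 bp). Without the limit on length there would be 3455 regions, 725 more.

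Fold enrichment is the authors' value for each peak, the ratio of the pileup of fragments at the summit to the local background, and classes of regions were compared within each list. Values of the 4 libraries are given side by side for each member, without a test, and their order between libraries is no measure of a difference between marks. The median over members was 11.7 and 11.5 in the H3K9cr libraries and 8.91 and 11.7 in the H3K9ac libraries. H3K9ac replicate 1 gave the lowest median in each class compared here, so its values were lower in general, though not in every member. Within its own list the median member stood at the 37.4th and 37.9th percentile for H3K9cr and at the 30.2th and 34.6th percentile for H3K9ac, below the middle of every list. Each list also holds peaks of 2000 bp or more, which the rule kept out of the members, so this standing is not independent of the rule.

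Members were weaker than regions of the same limited length at gene ends and differed from those outside genes by less than the spread between libraries. The 6367 short shared regions within 1 kb of a coding gene end had median fold enrichments of 32.6 and 31.7 for H3K9cr and 26.0 and 36.0 for H3K9ac. The difference of log2 medians was -1.53 ± 0.0696 (SD, n = 4 libraries), a fold of 0.347, with the same sign in 4 of 4 libraries and p = 0.13 in an exact two-sided sign-flip permutation test, the smallest value that 4 libraries allow. Among regions with a mean longest peak of 500 to 1500 bp the difference was -1.10. It was -1.04 among regions without a listed start in both classes. A listed coding start was held by 12.9% of members and 60.3% of the regions at gene ends. The 3529 short shared intergenic regions more than 5 kb from coding ends had medians of 11.8 and 11.3 for H3K9cr and 8.91 and 11.7 for H3K9ac, which differed from the members by 0.0045 ± 0.0170 on the log2 scale (SD, n = 4 libraries; exact sign-flip p = 1). Among regions without a listed start in both classes the members were lower in 4 of 4 libraries, by -0.09 on the log2 scale (exact sign-flip p = 0.13). The plot of strength by class shows the members divided by what they hold.

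**Figure D1:**
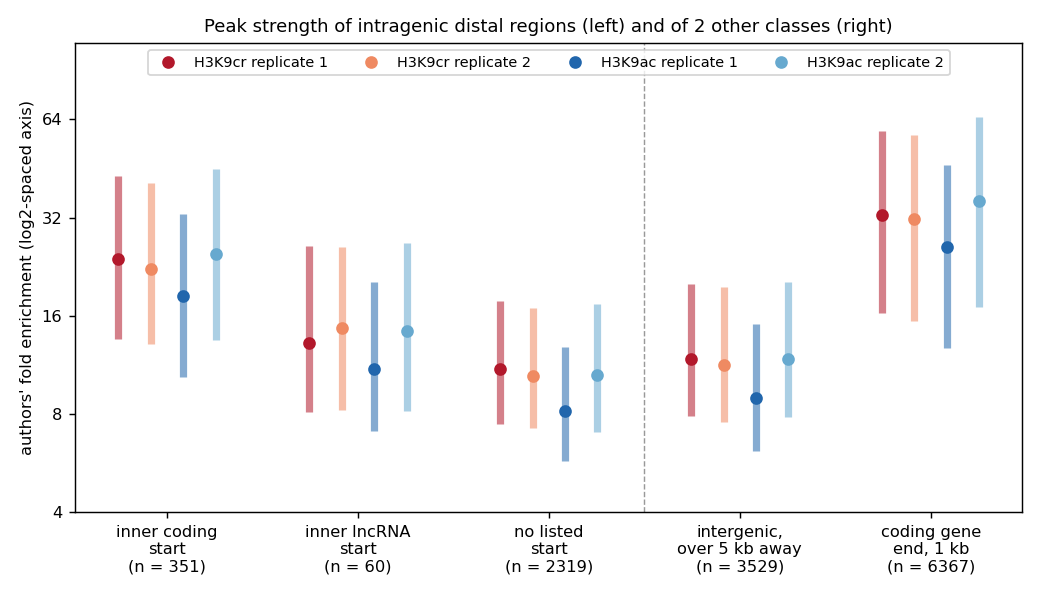
Median (points) and interquartile range (bars) of the authors' fold enrichment in each of the 4 libraries, on a log2-spaced axis, for members with a listed coding start, with a listed lncRNA start or with no listed start (left of the dashed line) and for the 2 other classes (right). Members with a coding start lie between the members without one and the regions at coding gene ends. Medians of members with no listed start lie slightly below those of the intergenic class, and medians of members with a lncRNA start lie above them.

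Most of the 100 strongest members held a listed start of a coding transcript. Ranked by the lowest of the 4 within-list percentiles of fold enrichment, 9 of the top 10 members and 60 of the top 100 held a listed coding start, whereas 2 of the lowest 100 did. Of the members with a coding start, 45.3% stood above the list median in all 4 libraries. That share was 28.3% for those with a lncRNA start and 11.1% for those with none. Of the 433 members above the list median in all 4 libraries, 257 held no listed start, 159 a coding start and 17 a lncRNA start. Median fold enrichment of the 351 members with a coding start was 23.8 and 22.2 for H3K9cr and 18.4 and 24.7 for H3K9ac. In the 1748 members with no listed start whose hosts the start table holds it was 11.0 and 10.3 for H3K9cr and 8.02 and 10.5 for H3K9ac. The difference was 1.16 ± 0.0636 on the log2 scale (SD, n = 4 libraries), a fold of 2.24, with the same sign in 4 of 4 libraries and an exact sign-flip p of 0.13, the smallest possible. In the band of 500 to 1500 bp it was 0.71, and members with a coding start also had longer peaks. For the 60 members with a lncRNA start the difference was 0.42 ± 0.105 (SD, n = 4 libraries; exact sign-flip p = 0.13), and 0.10 in that band. The comparisons by start were chosen after seeing the data.

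The strongest member lay in Ank2, which encodes ankyrin B, an adaptor between membrane proteins and the spectrin skeleton. At chr3:127407491-127409345 its fold enrichment was 149 and 174 in the H3K9cr libraries and 115 and 181 in the H3K9ac libraries. The region held 2 listed starts and lay 91002 bp from the nearest coding end. At the 5′ end of the Ank2 record itself the peaks had fold enrichments of 11.6 and 16.1 for H3K9cr and 6.97 and 16.7 for H3K9ac, so the inner start was the higher of the pair in every library. Zfp638, a zinc finger gene, showed the same order. Its member at chr6:83914089-83915959 had 135 and 148 for H3K9cr and 127 and 160 for H3K9ac, against 23.3, 24.4, 14.2 and 22.0 at the 5′ end of the record.

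Other strong members with a coding start differed in whether the outer end of the gene was marked. No library had a peak within 1 kb of the 5′ end of the record of Smim10l1, Zcchc4, Tex9 or Dennd6a, whose members had lowest fold enrichments of 96.5, 81.8, 86.8 and 82.4. Mesd, which encodes a chaperone of LDL receptor family proteins, had 111 and 128 for H3K9cr and 98.6 and 142 for H3K9ac at its inner start, and 84.0, 84.7, 67.03 and 92.2 at its outer one. Phf14 and Dcakd were marked at both places. The remaining member of the top 10 lay in Gcfc2 (134 and 102 for H3K9cr, 107 and 115 for H3K9ac), a gene that the start table does not hold.

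The outer end was marked in a smaller share of the hosts with an inner coding start than of other genes, as counts without a test. Among 339 hosts of a member with a coding start, 197 (58.1%) had a peak in all 4 libraries within 1 kb of the 5′ end of the record. Of the 1145 hosts whose members held no coding start, 869 (75.9%) did. Genes over 10 kb without a member had such a peak in 6756 of 9594 cases (70.4%), and those of them with listed starts more than 5 kb apart in 395 of 606 (65.2%).

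Rarb, the retinoic acid receptor beta gene and a direct target of retinoic acid, which drives differentiation of P19 cells, was such a gene. The member at chr14:16574724-16576165 lay 143885 bp from the nearest coding end and had fold enrichments of 40.4 and 23.4 for H3K9cr and 32.5 and 41.3 for H3K9ac. No library had a peak within 1 kb of the outermost 5′ end of the Rarb record. The Rarb window printed above holds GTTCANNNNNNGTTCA, a direct repeat of the kind bound by retinoic acid receptors with RXR, at positions 199 to 214 of the window. On both strands this pattern was found in 1 of the 366 coding start windows inside members and in 25 of all 32851 windows (0.0761%). The match is a description of the letters and not of binding. Among 17 retinoid genes over 10 kb (median span 80.5 kb), 6 held a member (35.3%), beside 13.6% of all coding genes over 10 kb. Gene length, which goes with holding a member, was not adjusted for. Besides Rarb the retinoid genes with a member included Rxra (19.7 and 14.9 for H3K9cr, 12.0 and 14.0 for H3K9ac), Stra6, Rdh10 and Ncoa3, which encode a partner receptor, a retinol transporter, a retinol dehydrogenase and a coactivator.

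Hdac7, a class IIa histone deacetylase, had 3 members and no peak at its outermost 5′ end. The strongest, at chr15:97830475-97832448, held 2 listed starts and had 41.7 and 30.6 for H3K9cr and 32.2 and 40.1 for H3K9ac. Celf2, which encodes a splicing regulator, likewise had 3 members and an unmarked outer end, and its strongest, with a coding start, had 63.0 and 52.9 for H3K9cr and 50.8 and 65.4 for H3K9ac. Grb2, the adaptor that links receptor tyrosine kinases to Ras, was marked at both places. Its member, whose CpG-poor window is printed above, had 44.0 and 73.2 for H3K9cr and 40.0 and 80.8 for H3K9ac, higher in replicate 2 of each mark as listed, and its outer end had 93.7, 97.1, 74.0 and 92.9. Fgf13 on the X chromosome had an unmarked outer end and a member at a CpG-rich inner start with 16.8 and 14.5 for H3K9cr and 12.4 and 18.6 for H3K9ac.

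Inner starts inside members were richer in CpG than inner starts without a peak. The 366 coding start windows in members had a median GC content of 58.8%, 13 CpG and an observed to expected CpG ratio of 0.545, above 0.6 in 164 of them (44.8%). The 1176 inner coding starts without a peak in any library had 48.7%, 4 CpG and a ratio of 0.223, above 0.6 in 3.40%. The ratio over all 20099 coding start windows was 0.555, close to that of the members, and the 447 inner coding starts in other shared regions had 0.722. GGGCGG, the letters of a GC box, was found on either strand in 56.6% of member windows, 12.1% of those without a peak and 45.7% of all coding start windows. TATAAA was found in 6.01% of member windows, 16.4% of those without a peak and 12.9% of all coding start windows. CCAAT was about as frequent in member windows (34.2%) as in those without a peak (36.9%) and in all coding start windows (38.2%), and ATGCAAAT, an octamer, was in 0.820%, 1.62% and 1.64%. Matches of different patterns may overlap, and no match says only that the letters are not in the window. These shares were not tested.

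The CpG ratio went with peak strength among members with a coding start. The 159 members with a start window above 0.6 had median fold enrichments of 37.2 and 33.2 for H3K9cr and 27.4 and 35.3 for H3K9ac. The other 192 had 17.7 and 17.5 for H3K9cr and 13.9 and 18.4 for H3K9ac, lower in all 4 libraries. Members above 0.6 also had longer peaks, with medians of 1303 to 1471 bp against 1082 to 1293 bp. Members were grouped by the highest ratio among their coding start windows. In the window nearest the summits, Ank2, the strongest, had a ratio of 0.248 and Grb2 0.184. Each of these members held 2 listed starts, so these ratios need not be the ones used for grouping. The nearest window had 1.09 in Hdac7, 0.966 in Fgf13 and 0.810 in Zfp638.

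Summits lay just downstream of the inner starts. In the 310 members with 1 listed coding start, the median summit was 173 and 176 bp downstream in the H3K9cr libraries and 165.5 and 163.5 bp in the H3K9ac libraries. It was downstream in 79.4% of them in H3K9cr replicates 1 and 2 and H3K9ac replicate 2, and in 80.6% in H3K9ac replicate 1. In 3378 short shared regions at gene ends with 1 listed coding start the medians were 223, 259, 248.5 and 244 bp, and 86.2%, 85.8%, 86.0% and 86.4% were downstream. The Rarb summits lay 165 to 236 bp and the Ank2 summits 401 to 450 bp downstream of the starts of their printed windows. The plot of summits around starts shows the 4 libraries.

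**Figure D2:**
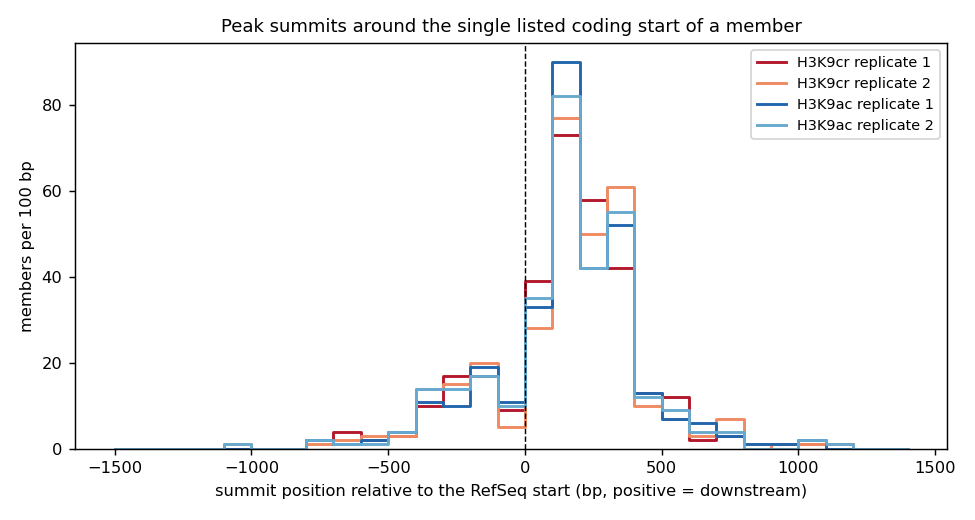
Number of members per 100 bp (vertical axis) by the distance of the summit from the single listed coding start of the member (horizontal axis, bp, positive downstream), for each of the 4 libraries, in 310 members. All 4 lines peak between 100 and 200 bp downstream and fall to a low count just upstream of the start.

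The 10 strongest members with no listed start in hosts that the table holds had values above the medians of the regions at gene ends. They were picked for their height, so this is a description. The first lay in Lrrc74b (122 and 97.6 for H3K9cr, 92.8 and 102 for H3K9ac), followed by Psph, which encodes the last enzyme of serine synthesis (81.7 and 83.7, 65.8 and 88.4), and Zfp53 (67.9 and 98.0, 70.2 and 110). Ahrr, the repressor of the aryl hydrocarbon receptor, had 66.98 and 77.0 for H3K9cr and 62.4 and 86.0 for H3K9ac in a member 31642 bp from the nearest coding end. Members in Por, the electron donor of cytochrome P450 enzymes, and in Dcun1d4, Tex14, Phldb1, Ipo5 and Tmem135 made up the remainder, with lowest fold enrichments from 45.7 to 60.6.

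Noncoding gene records had an end in some members. For lncRNA there were 107 pairs of a record and a member, in 106 members. The lncRNA records Gm51018 and Gm5563 had both ends in members and were counted once per end. There were also 9 microRNA records in 4 members, 4 small nuclear RNA records in 4, 1 tRNA and 7 pseudogenes in 7. The strongest lncRNA ends were those of Gm16796 in Pfdn4 (84.5 and 91.5 for H3K9cr, 75.2 and 107 for H3K9ac), Gm34102 in Mia3 (77.2 and 68.9, 68.2 and 69.6) and Gm32755 in Angel1 (70.8 and 72.6, 63.2 and 92.9). These were picked as the highest, so their standing above the median member of each list is a description.

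At the miR-302/367 cluster, fold enrichment was 26.0 and 21.2 for H3K9cr and 19.4 and 18.3 for H3K9ac. The pileups were 77.9 and 84.0 for H3K9cr and 51 and 72.2 for H3K9ac, and the limma difference in pileup rank had an adjusted p of 0.777. Summits were 15, 20, 5 and 35 bp upstream of the Mir302b hairpin, the first of the cluster on the plus strand, and 510 to 540 bp upstream of the Mir367 hairpin, the last. The member also held an end of the lncRNA record Gm51018 (chr3:127545089-127546903), whose span covers the summits and the hairpins. The seed AAGUGCU of miR-302b-3p and miR-302d-3p is carried by 5 of the 1738 mature microRNAs in the table, and AUUGCAC of miR-367-3p by 7. Mir128-2 in Arpp21, a brain-enriched microRNA, lay in a member with 14.0 and 10.8 for H3K9cr and 12.9 and 12.8 for H3K9ac, whose summits were 10 to 97 bp upstream of the hairpin. Mir199b in Dnm1 lay in a member with 19.2 and 15.7 for H3K9cr and 6.58 and 16.03 for H3K9ac, in which H3K9ac replicate 1 was the low library.

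Small nuclear RNA records appeared at the edges of strong members in Tex14, a gene for a protein of germ cell bridges. The end of Rnu1a1, a U1 small nuclear RNA gene that directs recognition of 5′ splice sites, lay in the member at chr11:87421825-87422891, with 65.6 and 72.1 for H3K9cr and 50.2 and 70.0 for H3K9ac. The end of Gm22068, also recorded as a small nuclear RNA, lay in the next member, at chr11:87425525-87426739, with 44.0 and 35.4 for H3K9cr and 37.2 and 37.6 for H3K9ac. Reads from such repeated genes may map to several copies, so these heights are uncertain. In the Tex14 record 5 further members followed, with fold enrichments down to 5.83.

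The share of genes with a member rose with gene length. The rule leaves out 5 kb at each gene end, so longer genes offer more room and the rise is partly set by the rule. Members per eligible base were not compared between groups of gene length. Of 13960 coding genes with a span over 10 kb, the shortest that can hold a member, 1900 (13.6%) held at least 1. From the shortest to the longest of 4 equal groups by span, 2.98%, 8.40%, 14.9% and 28.2% held a member, and the median span was 75.4 kb for hosts and 29.5 kb for the others. One member was found in 1340 genes, 2 in 373, 3 or more in 187 and 5 or more in 35. Among genes in the start table, the 5′ end of the record had a peak in all 4 libraries in 71.8% of 1484 hosts and 70.4% of 9594 others. From the shortest to the longest of 4 equal groups by span, such a peak was found in 57 of 81 hosts and 1721 of 2689 others, then in 66.7% and 68.8%, 70.3% and 72.7%, and 74.3% and 78.4%, so the order of hosts and others depended on gene length. Any listed start was marked in 84.7% of hosts and 73.1% of others, a count to which the members with a start contribute.

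Gse1, which encodes a subunit of a histone deacetylase and demethylase corepressor, held the most members, 10 in 353 kb. Their fold enrichments ran from 3.58 to 31.0, and none held a listed start. Ryr1, the calcium release channel of skeletal muscle, held 8 in 122 kb (4.18 to 35.7), Zfhx3, a zinc finger homeobox factor, 8 in 682 kb (6.13 to 31.5), and Tex14 7 in 151 kb (5.83 to 72.1). Rnf220, a ubiquitin ligase gene, and Gramd1b, which encodes a sterol carrier, also held 7 each, as did Akap6, an anchor of protein kinase A. The 1 member of Gramd1b at chr9:40414066-40415202 had 30.7 and 75.7 for H3K9cr and 26.4 and 94.0 for H3K9ac, and the 1 of Ryr1 at chr7:29108665-29109941 had 11.4 and 28.5 for H3K9cr and 12.8 and 35.7 for H3K9ac. In both, the listed value in replicate 2 of each mark was more than 2 times that in replicate 1. The plot of members along host genes shows how unevenly they were spaced.

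**Figure D3:**
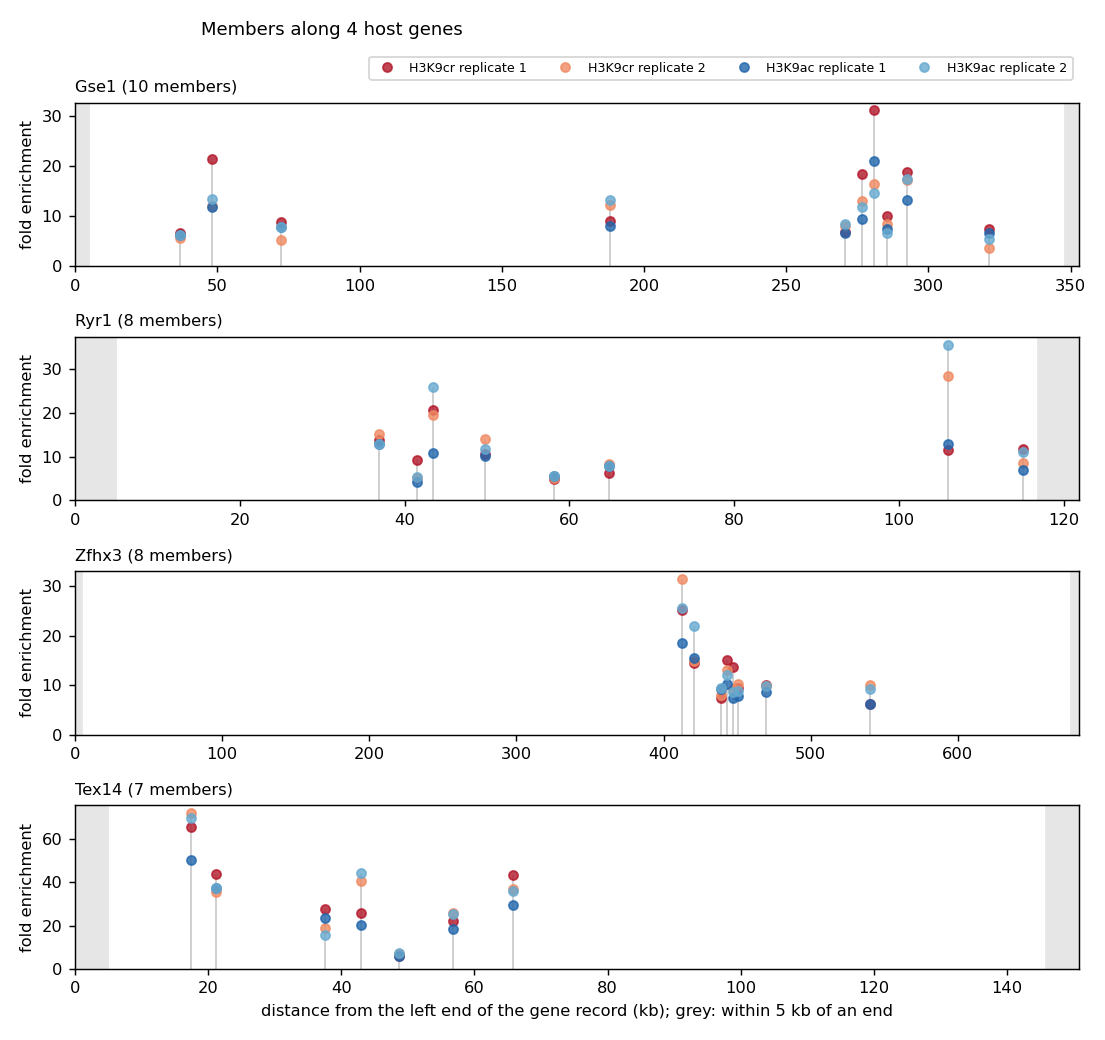
Fold enrichment in each of the 4 libraries (vertical axis) of every member of Gse1, Ryr1, Zfhx3 and Tex14 by its distance in kb from the left end of the gene record (horizontal axis), with the 5 kb next to each end in grey. Members of Ryr1, Zfhx3 and Gse1 stand in groups, and the left part of Zfhx3 holds none.

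Neighbouring members often stood close together. With gaps under 0.0125 Mb, 736 members (27.0%) formed 320 runs inside a gene, of which 64 had 3 or more members and 22 had 4 or more. The run with the most members was in Ryr1, with 6 members in 29.2 kb and fold enrichments from 4.18 to 26.0. Runs of 5 members were found in Arhgap23 (39.1 kb), Foxp4 (31.9 kb), Tex14 (28.9 kb), Srcin1 (25.9 kb), C77080 (25.7 kb), Gse1 (23.3 kb), Cxxc5 (14.0 kb) and Unc13a (11.8 kb). Of these, 3 members of the C77080 run held a listed start and the others none.

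Along their hosts, members lay more often in the first part of the gene than in the last. For 2133 members with 1 host of known strand, the median position was 45.5% of the span from the 5′ end, and 56.1% lay in the first 50%. Divided into 4 equal parts from the 5′ end, the shares were 22.4%, 33.7%, 27.7% and 16.2%, where the part of these hosts more than 5 kb from the record's ends falls 23.2%, 26.8%, 26.8% and 23.2%. Of members with a coding start 66.4% lay in the first 50% of the host, and of those with none 54.2%. Neither the position nor this difference was tested.

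Hosts were described further by gene lists, of which genes over 10 kb are counted, beside the 13.6% of all such genes that held a member. The lists differ in gene length, which goes with holding a member, and length was not adjusted for. Among mesoderm and endoderm regulators 8 of 14 (57.1%, median span 69.4 kb) held a member, among neural development regulators 18 of 34 (52.9%, 203 kb) and among axon guidance and neuronal adhesion genes 23 of 46 (50%, 438 kb). RNA-binding and splicing regulators had 15 of 35 (42.9%, 110 kb), Notch pathway genes 5 of 12 (41.7%, 46.0 kb) and pluripotency factors 6 of 19 (31.6%, 20.9 kb). The share was lowest in histone demethylases (2 of 18, 69.6 kb) and blood cell genes (0 of 16, 41.8 kb), and none of the cytosolic ribosomal protein genes was long enough.

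**Figure D4:**
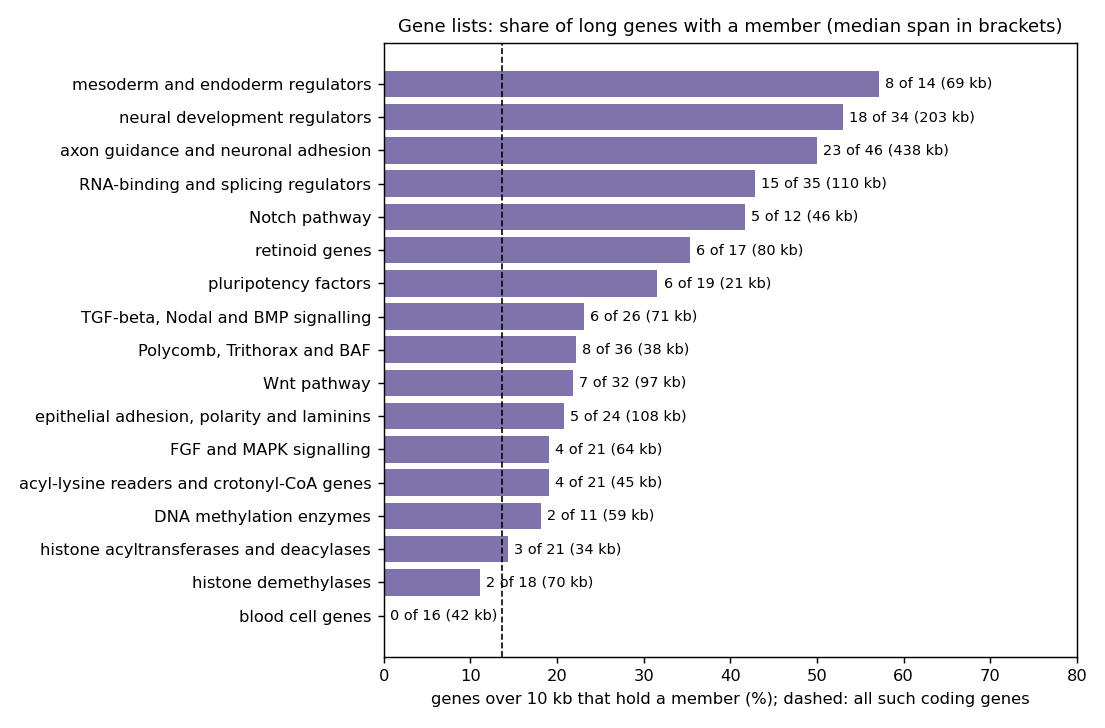
Share of the genes over 10 kb in each list shown that held a member (bars, %), with the count and the median gene span in kb beside each bar and the share over all coding genes over 10 kb (13.6%) as a dashed line. Lineage regulators, neuronal adhesion and RNA-binding genes stand highest and blood cell genes at 0.

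Among neural regulators, Zfhx3 held 8 members, the nuclear factor I genes Nfia and Nfix 6 each, and the forkhead genes Foxp4 and Foxp1 5 and 4. The strongest Nfia member had 26.8 and 26.8 for H3K9cr and 24.4 and 31.4 for H3K9ac. Pbx3, a TALE homeobox factor, had a single member of 41.7 and 36.8 for H3K9cr and 24.0 and 40.9 for H3K9ac. Pax2, Pax3 and Pax6, paired box factors of the neural tube, kidney and eye, held 2 each.

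Mesoderm and endoderm regulators were marked inside Tbx5, a T-box factor of heart and forelimb, with 5 members, and inside Mef2c, Gata4, Gata6, Hnf4a, Zfpm2, Mef2a and Tal1. The strongest of the 2 Mef2c members had 54.6 and 61.7 for H3K9cr and 42.6 and 60.9 for H3K9ac, well above the strongest of Tbx5 (12.9 and 9.07, 8.52 and 9.62) and Gata4 (12.7 and 8.91, 9.02 and 12.3). In none of the 8 genes did the strongest member hold a listed start.

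Of the RNA-binding genes, Celf4 held 6 members, Msi1, which encodes the neural stem cell protein Musashi 1, and Rbfox3 5 each. The strongest Msi1 member had 40.4 and 43.8 for H3K9cr and 37.6 and 39.8 for H3K9ac. Lsamp, a neuronal adhesion gene, had the strongest member among the axon guidance and adhesion genes, with 68.8 and 67.8 for H3K9cr and 39.3 and 76.2 for H3K9ac, and Tenm4 held the most, 4.

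Pluripotency factors with a member were Tcf7l1 with 2, and Etv5, Jarid2, Lin28b, Esrrb and Trim71 with 1 each. All of these members were modest in height. Etv5, an ETS factor downstream of FGF signalling, had the highest, 18.8 and 18.9 for H3K9cr and 10.9 and 13.1 for H3K9ac. Esrrb, a nuclear receptor of the naive state, had 10.7 and 5.70 for H3K9cr and 9.53 and 9.57 for H3K9ac.

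Signalling genes were divided over 4 lists. Wnt pathway genes had 7 of 32, with the strongest in Wnt5b (33.5 and 32.7 for H3K9cr, 33.1 and 32.4 for H3K9ac) and single members in Wnt3, Wnt3a and Wnt5a. Genes of TGF-beta, Nodal and BMP signalling had 6 of 26, with 3 members each in the SMAD repressors Ski and Smad6. FGF and MAPK genes had 4 of 21, Grb2, Fgf18, Fgf13 and Etv5. In the Notch pathway, Maml3, which encodes a coactivator of the Notch intracellular domain, held 6 of the list's 10 members, the strongest with 69.7 and 49.6 for H3K9cr and 51.1 and 54.9 for H3K9ac, whereas Notch1, Notch2 and Jag1 had 1 weak member each, with lowest values of 3.90, 3.06 and 4.65.

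Chromatin genes were near or somewhat above the share of all long genes. Histone acyltransferases and deacylases had 3 of 21 (14.3%), all of them deacetylases, Hdac7, Hdac9 and Hdac5. Acyl-lysine readers and crotonyl-CoA genes had 4 of 21 (19.05%), of which Taf1, the largest TFIID subunit, was the strongest (64.9 and 59.9 for H3K9cr, 43.4 and 64.8 for H3K9ac). Polycomb, Trithorax and BAF genes had 8 of 36 (22.2%), led in strength by Arid1b (34.2 and 52.4, 22.9 and 53.6). Dnmt3a, a de novo DNA methyltransferase, held 4 members and Tet3, which oxidises 5-methylcytosine, 2, and the other 9 DNA methylation genes over 10 kb held none.

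The marks were then compared within the members, a contrast that the rule did not use. Each region's highest summit pileup was ranked within its library over all 22972 shared regions, ranks were turned into normal scores, and H3K9cr was compared with H3K9ac by limma with Benjamini-Hochberg adjustment. At an adjusted p of 0.05, 1 of 2730 members passed (0.0366%), beside 42 of all shared regions (0.183%), each of them higher in H3K9cr. That member lay in Chst3, which encodes a chondroitin sulfotransferase, at chr10:60193139-60195028. Its pileup was 347 and 335 in the H3K9cr libraries and 188 and 301 in the H3K9ac libraries, with no overlap between marks, and H3K9ac replicate 1 has a lower scale in general. As ranks these were the 92.2th and 89.5th percentile against the 83.1th and 82.5th, a difference of 0.39 normal score units with an SE of 0.0742 and a limma adjusted p of 0.0412. The fold enrichment of the Chst3 member overlapped between marks, at 116 and 56.0 for H3K9cr and 73.2 and 58.7 for H3K9ac. With fold enrichment, the -log10 q-value or the mean over a region's peaks in place of the highest pileup, 0 members passed, whereas 24 passed with log2 pileup, 4 with the replicate number as a block, 17 with that block and -log10 q, and 3 among peaks with a -log10 q of at least 5. Without H3K9cr replicate 1 or 2 the number was 7 or 2, and without H3K9ac replicate 1 or 2 it was 32 or 56. The count of members that differed thus rests on the measure of height and on single libraries.

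At an unadjusted limma p under 0.05, 202 members (7.40%) were higher in H3K9cr, where 5.42% of all shared regions were, and 76 (2.78%) were higher in H3K9ac, where 4.03% of all shared regions were. Both H3K9cr libraries ranked above both H3K9ac libraries in 641 members (23.5%, beside 19.1% of all shared regions), and the reverse held in 440 (16.1%, beside 20.4%). The intergenic class had nearly the same split, 22.3% and 16.8%, and regions at gene ends the opposite one, 14.7% and 21.8%. Members and intergenic regions both had low ranks, with library medians between the 22.2th and 23.8th percentile, whereas those of regions at gene ends were between 53.8 and 54.4. These ranks are over all shared regions, including those with peaks of 2000 bp or more, which the classes named here leave out. The median member score was -0.75 and -0.71 for H3K9cr and -0.74 and -0.77 for H3K9ac, a difference of 0.02 with overlap between marks and an exact permutation p of 0.667, where 0.333 is the smallest that 2 libraries against 2 allow.

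The members that differed most between marks were weak ones and none of them passed the adjusted threshold. Among the 50 smallest p-values, the differences furthest towards H3K9cr were in BC052040, Steap2, Hrh1, Pgap1 and Nme7. The BC052040 member had pileups of 31.0 and 31.8 for H3K9cr and 9 and 17.6 for H3K9ac (limma adjusted p = 0.190), and the Steap2 member, in a gene for a metalloreductase, 32.9 and 53.6 against 10 and 22.4 (limma adjusted p = 0.0971). Furthest towards H3K9ac were Kirrel3, Ciita, Abca4, Grid1 and B4galnt3. The member in Ciita, the transactivator of MHC class II genes, had pileups of 22.5 and 24.7 for H3K9cr and 21 and 47.8 for H3K9ac (limma adjusted p = 0.270), which overlap in raw height although the ranks do not.

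Covered length gave no call. In 0 of 22972 shared regions, 0 of them members (percent called 0), did the covered base pairs differ at an adjusted limma p of 0.05. Unadjusted, 160 members (5.86%) were longer in H3K9cr and 49 (1.79%) in H3K9ac, beside 3.82% and 1.66% of all shared regions. By order alone the split was the opposite: both H3K9cr libraries were above both H3K9ac libraries in 419 members (15.3%, beside 13.4%) and below both in 615 (22.5%, beside 23.8%). Members covered a median of 891 and 922.5 bp in the H3K9cr libraries and 722.5 and 831 bp in the H3K9ac libraries, with no overlap between marks before centring. Centred on the library median over all shared regions, the median member was at -628 and -629 bp in the H3K9cr libraries, and at -651.5 and -662 bp in the H3K9ac libraries, a difference of 28.25 bp (exact permutation p = 0.333, the smallest possible). The median of the members' own limma differences had the other sign, -23.25 bp, beside -25 bp over all shared regions, so no direction is given.

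Summits of the 2 marks lay close together. The 4 summits of a member spanned a median of 107 bp, within 150 bp in 1631 members (59.7%) and over more than 500 bp in 170 (6.23%). The median distance between the summits of 2 libraries was 33 bp for the H3K9cr replicates and 37 bp for the H3K9ac replicates, and 30 to 39 bp for the pairs of different marks. The Spearman correlation of pileup over the 2730 members, which share libraries and local sequence and are given as a description, was 0.943 and 0.931 between replicates of a mark and 0.916 to 0.930 between marks. For fold enrichment it was 0.832 and 0.829 between replicates of a mark, and 0.902 and 0.916 where an H3K9cr and an H3K9ac library carried the same number. Fold enrichment of members thus went with the replicate number more than with the mark, and pileup did not. The plot of marks and replicates against each other shows both pairings.

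**Figure D5:**
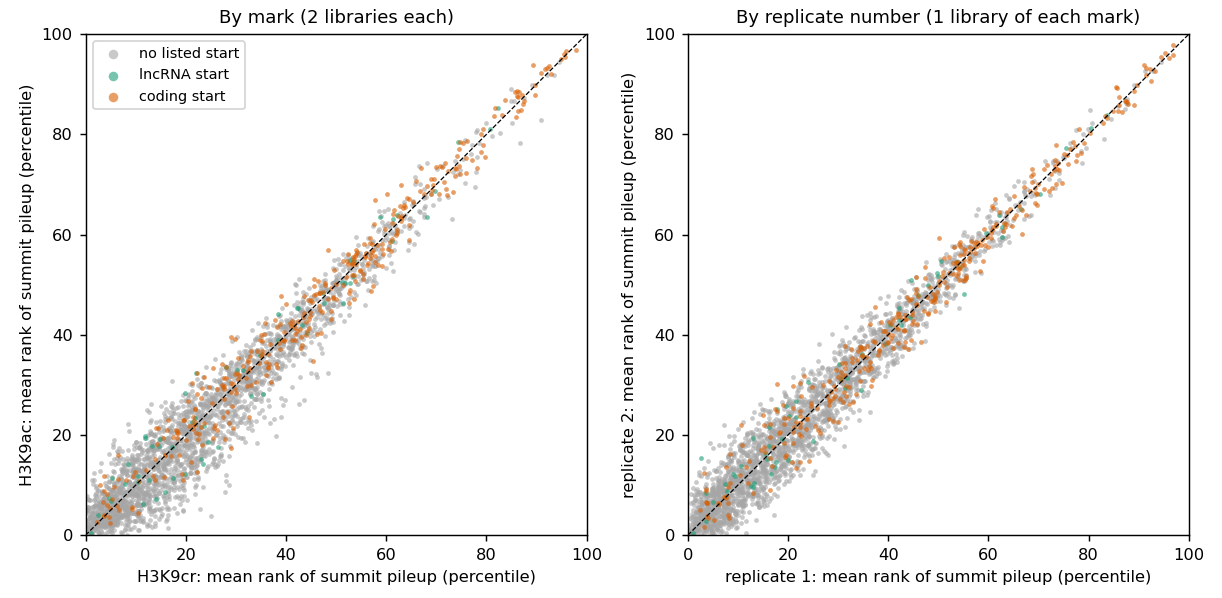
Mean within-library percentile of the summit pileup over all shared regions for each of 2730 members, H3K9cr against H3K9ac (left) and replicate 1 against replicate 2 (right), coloured by the start that a member holds; the dashed line marks equality. Points lie along the line in both panels, and members with a coding start reach the highest percentiles.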

How the data were processed

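Native chromatin immunoprecipitation of H3K9cr and H3K9ac in P19 cells gave 4 peak lists of 28360, 28345, 26096 and 27474 peaks, 1 per library. The submitters' processing notes name Bowtie2 2.4.1, MACS2 2.2.7.1 and GRCm38, with options not stated in the sources at hand. According to the deposited file headers, each peak has a position, the pileup (coverage signal) at its summit, -log10 p-value and -log10 q-value, and fold enrichment, a ratio to the local background, all made by the authors (per the file headers). The lowest deposited -log10 q was 2.02 to 2.06, so weaker sites are not listed.

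Peaks overlapping by at least 1 bp were merged in Python 3.11.15 (numpy 2.4.6, pandas 2.3.3, scipy 1.17.1), and a region took its highest peak's values. Starts inside a region came from RefSeq windows of GRCm38.p6. Marks were compared with limma 3.58.1 in R 4.3.3 (eBayes with trend; Benjamini-Hochberg over all shared regions), single values by exact permutation. The code was tested on simulated data. The members and gene lists were chosen with earlier results of these data known. Members were named as the 10 strongest by lowest percentile, the 5 largest differences in each direction among the 50 smallest p-values, the 10 genes with most members, up to 4 genes per list, the nearest to each threshold, the 10 longest runs and the strongest at noncoding ends; other named members were chosen after their values were seen. Some listed genes are not reported here.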

Additional observations from a re-analysis of the deposited data

How the results depend on the processing

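Fold enrichment, pileup and -log10 q are heights set by the authors' caller, read depth is unknown, and sites below the authors' threshold are not listed, so an unmarked end means no listed peak. The start table is incomplete and each mark has 2 libraries, which limits each test by mark. The number of members (2730) stayed between 1973 and 3237 and that of host genes (1900) between 1336 and 2168 under the other merging, length, distance and peak thresholds tried. The comparison with gene ends kept its sign in all 10 alternatives, and the 2 comparisons by start in all 7 each.

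The small difference from intergenic regions (0.0045) changed sign with pileup (-0.0175), -log10 q (-0.529), a mean longest peak of 500 to 1500 bp (-0.0416), intergenic regions 5 to 50 kb away (-0.0375) and regions without a start in both classes (-0.0893), and ranged from -0.0038 to 0.0088 when each library was left out. With -log10 q, the length band, the 5 to 50 kb class and no start in both classes, members were lower in 4 of 4 libraries (exact sign-flip p = 0.13, the smallest possible). The count of 42 shared regions that differed in pileup rank became 0 with fold enrichment, 0 with -log10 q and 157 (24 members) with log2 pileup, and ranged from 31 to 404 when each library was left out (2 to 56 members), with the lone library of a mark assumed to vary like the other mark's. It was 86 without H3K9cr replicate 1, 177 without H3K9ac replicate 1 and 404 without H3K9ac replicate 2. For covered length the count of 0 ranged from 0 to 88, with 88 and 51 without H3K9cr replicates 1 and 2. The causes were not tested.

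With the replicate number as a block, 50 shared regions and 4 members differed in pileup rank and 0 in covered length. The differences between replicates of the 2 marks correlated at 0.0120 over all shared regions and at -0.0184 over members for pileup rank, and at 0.142 for covered length. For fold enrichment the correlation was 0.616 over all shared regions and 0.486 over members, and for -log10 q 0.283 and 0.223, so same-numbered libraries deviated together in these 2 measures. The labels give no shared source for a number and there are 2 pairs, so the pairing was not settled. With the block, added after seeing the data, fold enrichment gave 0 calls, as without it (847 and 650 shared regions at an unadjusted p under 0.05 higher in H3K9cr and H3K9ac), and -log10 q gave 171 shared regions and 17 members, where without the block it gave 0. A lack of calls with -log10 q therefore depends on the block.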
